A study of Caenorhabditis elegans with 4 samples.

Results

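In late *Caenorhabditis elegans* embryos, part of the regions occupied by RNA polymerase II lay in strings of close neighbours. Of the 5364 regions that the authors listed as bound, 1003 lay in 193 such runs, each of 4 or more regions. The regions were chosen by their positions on the chromosomes: neighbours less than 1000 bp apart, from the end of one to the start of the next, were joined, and every region in a run of 4 or more was taken. The run regions were 18.7% of the list (exact 95% binomial interval 17.7 to 19.8%) and held 23.2% of the bases that all regions cover. Because positions, widths and q-values all come from the same ChIP against input comparison, they are described here without a test, and intervals cover counting error only. Regions of a run lie side by side, so these intervals are too narrow for shares of regions.

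Chromatin immunoprecipitation and sequencing (ChIP-seq) recovers the DNA that is crosslinked to a protein. Here 2 ChIP libraries and 2 input libraries (chromatin before precipitation), each with a replicate 1 and a replicate 2, were made from whole embryos, labelled hermaphrodite, of the wild-type laboratory strain N2 at the late stage (4.5 hours beyond the early embryo, 20 °C). All groups shared this genotype and stage. For all libraries 2% formaldehyde and 100 mM Tris are given, and no other treatment is named. The antibody given for the ChIP libraries, 8WG16, is a mouse monoclonal against the heptapeptide repeat at the C-terminal end of AMA-1, the largest polymerase subunit, whereas the shared protocol speaks of serum against GFP. The replicates were combined into a single list before deposition, so no region has a value per library, the depth is unknown, and no spread between replicates can be given. Whole embryos hold many cell types, and strong occupancy in few cells cannot be told apart from weak occupancy in many.

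RNA polymerase II transcribes protein-coding genes, and ChIP finds it both near transcription starts and along the bodies of active genes. The 8WG16 antibody prefers repeats with little phosphorylation, a form that is typical of polymerase near the start of a gene. The nematode genome is compact, with short spaces between genes, and many of its genes form operons that are transcribed from a shared promoter and cut into separate messages by trans-splicing. Close regions can thus belong to the same gene, to genes of an operon or to adjacent genes, and the list holds no gene names that would tell these apart. The regions are on WormBase build WS180. No gene map of that build was used, so the runs are given by position only and the embryonic stage was not checked against marker genes.

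Most gaps inside the runs were far shorter than the limit that defined them. The smallest gap anywhere in the list was 200 bp. Among the 810 gaps inside runs, the median was 385 bp (interquartile range 268 to 597.5 bp), and 269 gaps, or 33.2%, were under 300 bp. The 941 gaps inside pairs and runs of 3 were similar, with a median of 394 bp and with 301 under 300 bp. Gap numbers were highest just above 200 bp and declined without a break at the limit. From 900 to 999 bp there were 96 gaps in the list, and from 1000 to 1099 bp there were 81. The largest gap joined was 999 bp and the smallest not joined was 1000 bp. With a limit of 900 bp the runs would number 174, with 893 regions, and with 1100 bp they would number 209, with 1115 regions. The limit thus did not fall at a break in the spacing.

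**Figure D1:**
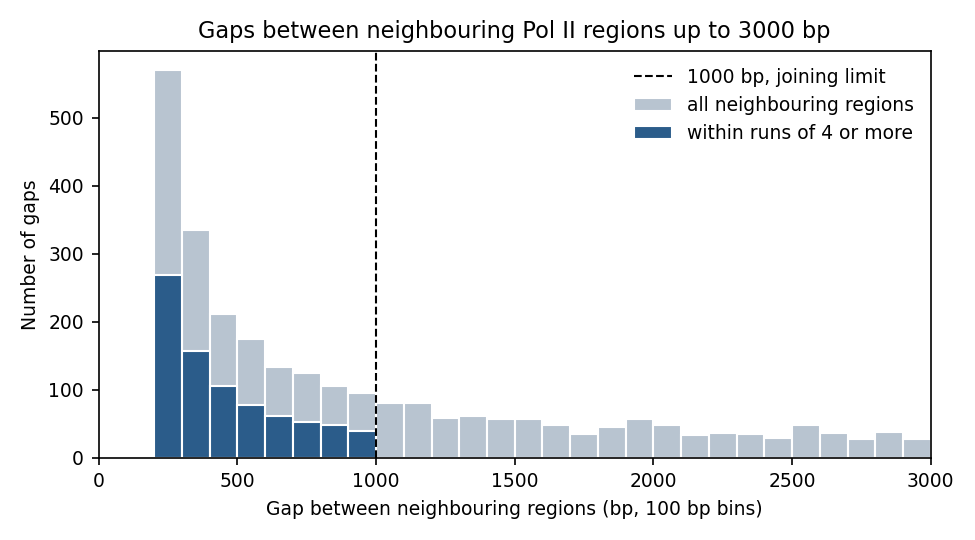
Number of gaps between neighbouring regions in bins of 100 bp, for all neighbours (light bars) and for neighbours within runs of 4 or more (dark bars), which are part of the light bars. The dashed line is the joining limit of 1000 bp. No gap is under 200 bp, the bin from 200 to 299 bp is the fullest with 570 gaps, and the light bars continue beyond the limit.

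Most runs were short strings. Exactly 4 regions were found in 94 runs, 5 regions in 35, 6 in 32, 7 in 15 and 8 in 8 runs. The remaining runs held 9 regions (3 runs), 10 regions (3 runs), 11 regions (2 runs) or 12 regions (1 run). Just below the rule lay 189 runs of 3, with 567 regions. Runs of 3 had a median span of 3033 bp, of which 71.1% was covered, and runs of 4 had a median span of 4360 bp, of which 70.4% was covered. From 4 to 8 regions the span rose with each added region while the covered share stayed between 67.2 and 70.4%.

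From its first to its last base a run spanned 5918 bp at the median (interquartile range 3976 to 8305 bp, range 2470 to 20556 bp), and 28 runs reached 10 kb or more. The called regions filled a median of 68.7% of this span, and more than 50% in 168 of the 193 runs. In all, the runs spanned 1.28 Mb, or 1.28% of the 99.9 Mb between the chromosome starts and the last listed regions. At the extremes, a run of 4 regions on chromosome I (5299909 to 5317195) was covered to 92.6%. A run of 4 regions on chromosome IV (12698986 to 12701679) was covered to 24.1%, with widths from 38 to 367 bp. The best covered run consisted mostly of a single broad region, of 12044 bp, whereas the least covered was made of short, spaced regions.

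By this rule, the longest string of regions lay near the left end of chromosome I (1257538 to 1268094). It held 12 regions within 10557 bp and was covered to 50.8%. Its first region was the widest, at 1287 bp, and had the smallest q-value of the run, 3.66e-18; the q-value is the authors' p-value corrected for multiple testing. The next 3 regions were 284, 345 and 712 bp wide, with q-values of 8.14e-06, 2.89e-06 and 1.90e-12. They were followed by regions of 361, 371 and 255 bp, with q-values of 1.20e-07, 0.00139 and 9.48e-06. The largest q-values belonged to the sixth and the eighth region. The eighth region and the next pair, which were 191, 394 and 183 bp wide, had q-values of 0.00139, 0.000287 and 0.000576. The run closed with a 210 bp region (q-value 2.37e-06) and a 771 bp region (q-value 1.74e-08). The widest regions were thus the first and the last, the smallest q-values were those of the first and the fourth, and the 11 gaps ranged from 229 to 882 bp. A further region lay 1170 bp before the run, just outside the limit.

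The other runs with the most regions differed in how alike the widths and q-values of their regions were. The list gives no signal strength. On chromosome I (1725088 to 1741223), 11 regions spanned 16136 bp. The ninth of them alone was 6048 bp wide (q-value 6.75e-32) and held 49.8% of the covered bases. The 11 regions of a run in the middle of the same chromosome (6876572 to 6885492) were more alike, with widths from 121 to 1090 bp and q-values from 3.11e-10 to 0.00903. A run of 10 regions on chromosome V (13021409 to 13034098) was even in another way: all its regions were at least 561 bp wide and 69.0% of its span was covered, yet only 3 of the 10 had q-values of 0.001 or less. Long strings of regions therefore included a stretch with a dominant broad region. They also included a stretch, on V, with widths from 561 to 1968 bp and with most q-values above 0.001.

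Among the remaining runs of 8 to 10 regions, a run of 10 on chromosome I (14129949 to 14140853) was the least dominated by its widest region. That region, 1213 bp, held 16.4% of the covered bases, the smallest such share of the 193 runs. The share can be lower where a run has more regions. In this run the widest region was 5.14 times as wide as the narrowest, against 4.56 times in the run of 9 on chromosome V below. Another run of 10 on chromosome I (7518181 to 7527642) ended with its widest region, 1366 bp, which had a q-value of 1.61e-21. A run of 9 on chromosome V (6477615 to 6489124) was covered to 74.0%, and each of its 9 regions had a q-value of 0.001 or less. The longest run on chromosome III (1926088 to 1934288) also held 9 regions, from 146 to 1023 bp wide. The longest on chromosome IV (2307287 to 2314922), with 9 regions, was covered to 33.1% only, and its regions ranged from 3 to 636 bp. Of the 8 runs of 8 regions, the one with the longest span, on chromosome I (11763879 to 11779712), had 85.3% of its 15834 bp covered. Chromosome II reached 8 regions (4114703 to 4124225), the last of which, 2230 bp wide, had a q-value of 2.30e-21. Both sparse strings of short regions and nearly filled stretches thus occurred at similar numbers of regions.

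**Figure D2:**
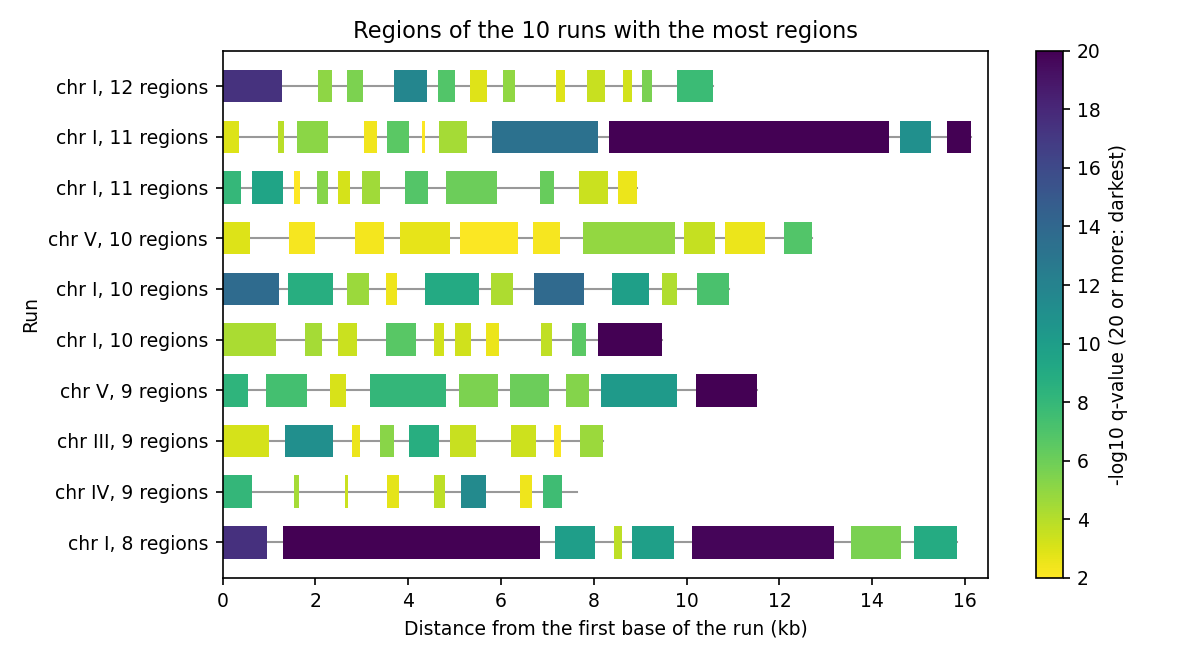
Map of the 9 runs with 9 or more regions and, of the 8 runs with 8 regions, the one with the longest span, each drawn from its first base (distance in kb). Boxes are the called regions to scale, coloured by −log10 of the authors' q-value, and the grey line is the span of the run; a region of 3 bp at the end of the run on chromosome IV is too narrow to see. The run of 12 regions is covered to 50.8%, and the run of 8 regions in the lowest row to 85.3%.

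The run with the longest span was not among these. On chromosome II (4571088 to 4591643), 7 regions took up 20556 bp and covered 84.9% of it. Their widths from left to right were 360, 6162, 1454, 1277, 2258, 2257 and 3676 bp. The last region had the smallest q-value, 3.54e-89, although the second was the widest, with 1.39e-48. The 6 gaps in this stretch added little, from 206 to 698 bp each. The nearest listed region outside it lay 7061 bp away.

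The 5 run regions with the smallest q-values lay in 5 different runs of 4 to 6 regions. The smallest q-value of any run region, 1.55e-282, was also the smallest of the whole list. It belonged to the last region of a run of 4 on chromosome II (14403404 to 14408265, 4862 bp wide). The regions before it were 2309 bp (q-value 2.43e-13), 782 bp (2.77e-14) and 19 bp (0.00662) wide. Next came the 12044 bp region on chromosome I (5302303 to 5314346, q-value 4.15e-249), whose neighbours in the run were 2154, 395 and 1417 bp wide. Then followed a 4296 bp region on II (11633826 to 11638121, q-value 2.23e-236), a 12568 bp region on IV (5977101 to 5989668, q-value 1.19e-180) and a 4645 bp region on V (14685662 to 14690306, q-value 8.50e-179). Of these 5 regions, 4 stood at an end of their run. Over all 193 runs, the smallest q-value of the run belonged to the first region in 45, the last in 50 and an inner one in 98.

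Widths within a run differed widely. The widest region of a run was 1629 bp at the median (range 325 to 12568 bp) and the narrowest 169 bp (range 1 to 1077 bp), so that within a run the widest was typically 10.6 times as wide as the narrowest (interquartile range 5.68 to 24.4). The widest region held 43.6% of the run's covered bases at the median, and in 63 runs it held 50% or more. It also had the smallest q-value of its run in 133 of 193 runs (68.9%). In 47 runs no region reached 1000 bp, in 73 runs at least 1 region reached 2000 bp, and in 16 at least 1 reached 5000 bp. A region under 100 bp was present in 63 runs (32.6%). Runs in which no region reached 1000 bp were thus less common than runs with a region of 2000 bp or more. Runs that held both a broad region and one under 100 bp were not counted. Regions under 100 bp were 7.38% of the run regions and 9.71% of the whole list. For regions of 2000 bp or more these shares were 9.97 and 6.94%. A run of several regions can hold both by the spread of widths in the list alone, and this was not tested.

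The place within the run made little difference to width. First, inner and last regions had median widths of 534, 579 and 583 bp. The widest region was the first in 44 runs, the last in 44 and an inner one in 105, or 54.4% of runs. Inner regions were 61.5% of the run regions. That share counts long runs more heavily, so it cannot be set directly against a share of runs. The median q-value was 3.93e-05 for first regions, 9.48e-06 for inner and 4.35e-06 for last regions. Positions run along the reference strand and not along genes, so first and last do not mean upstream and downstream.

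Run regions were wider than regions outside runs. Their median width was 567 bp (interquartile range 285 to 1072 bp), against 403 bp (204 to 765 bp) for the 4361 regions outside, a difference of 164 bp. The order-statistic 95% intervals of these medians were 526 to 616 bp and 388 to 415 bp. The 2 distributions overlapped over nearly their whole range, from 1 to 12568 bp inside runs and from 1 to 11945 bp outside. Regions under 100 bp were 7.38% of the run regions and 10.2% of the others. Broad regions of 2000 bp or more, 372 in the list, were 9.97% of the run regions (100 regions) and 6.24% of the others. On each of the 6 chromosomes the median width was larger in runs than outside, by 145.5 bp on II up to 588 bp on X.

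The difference in width set in below the size that defines a run. Regions with no neighbour within 1000 bp had a median width of 354 bp, regions in pairs 455.5 bp and regions in runs of 3 588 bp. With 4, 5, 6 and 7 regions the medians were 540, 542, 625 and 520 bp, and with 8 or more 554 bp. Width therefore rose from lone regions to runs of 3 and showed no further rise with run size.

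**Figure D3:**
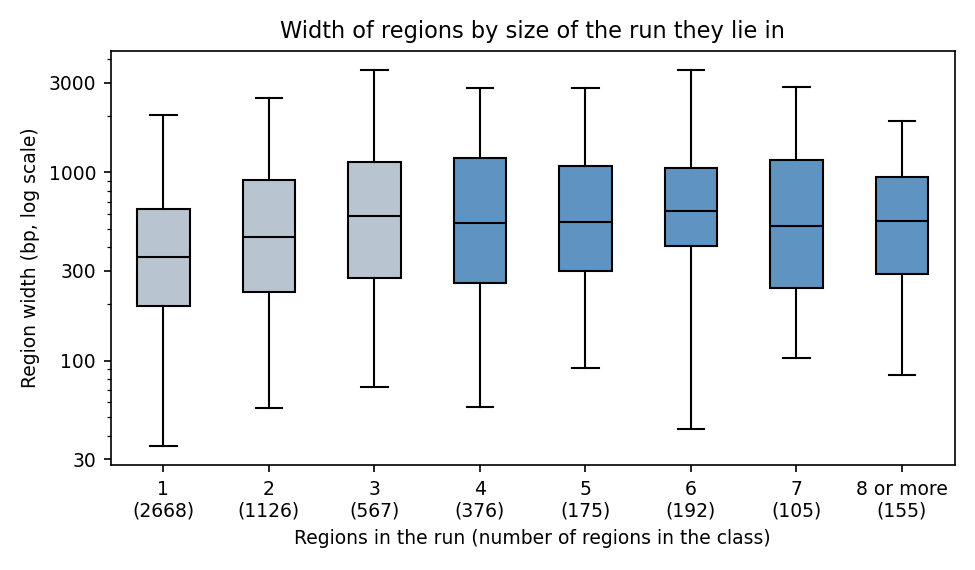
Region width (log scale) by the number of regions in the run, with the number of regions of each class in brackets. Boxes show the interquartile range and the median, whiskers the 5th and 95th percentiles; grey classes lie outside the runs of 4 or more and blue classes inside. The medians rise from 354 bp for lone regions to 588 bp in runs of 3 and lie between 520 and 625 bp in larger runs.

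Broader regions were more often part of a run. Of regions under 100 bp, 14.2% lay in runs (74 of 521), and of regions from 100 to below 500 bp, 14.7% (370 of 2516). The share was 22.5% from 500 to below 1000 bp and 25.3% from 1000 to below 2000 bp. It was 27.2% from 2000 to below 5000 bp and 25.4% (16 of 63; exact 95% binomial interval 15.3 to 37.9%) from 5000 bp upwards. The share stepped up near 500 bp and changed by less than the counting intervals above 1000 bp.

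Run regions also had smaller q-values. A q-value of 0.001 or less was reached by 742 run regions, or 74.0%, beside 65.5% of the whole list and 63.6% of the regions outside. The median q-value was 1.16e-05 in runs and 0.000209 outside. As with width, the regions outside were not uniform: 0.001 was reached by 59.7% of lone regions, 67.9% of regions in pairs and 73.4% of regions in runs of 3. In runs of 4, 5, 6 and 7 the shares were 69.1, 75.4, 79.7 and 73.3%. The run regions thus differed from lone regions and pairs more than from runs of 3, whose median q-value was 1.47e-05. Within width classes the median q-value was smaller in runs than outside in 5 of 6 classes. From 100 to below 500 bp the medians were 0.000602 in runs and 0.000687 outside, and from 1000 to below 2000 bp 1.26e-11 and 5.89e-09. From 5000 bp upwards the order turned, with 5.64e-75 in runs and 8.63e-81 outside. In 42 runs (21.8%) every region reached 0.001, and in 2 runs none did.

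Chromosome I was the richest in runs and X the poorest. Chromosome I carried 60 of the 193 runs, with 326 regions, on 14.98% of the spanned sequence. It was followed by II with 36 runs (185 regions), III with 35 (177 regions), V with 29 (161 regions) and IV with 26 (126 regions). X carried 7 runs with 28 regions. Per Mb of span this was 4.01 runs on I, 2.54 on III, 2.36 on II, 1.49 on IV, 1.39 on V and 0.398 on X. Per 1000 protein-coding genes, counted in the RefSeq gene table of assembly WBcel235, it was 20.9 runs on I, 13.2 on III, 10.4 on II, 7.92 on IV, 5.81 on V and 2.56 on X.

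The share of a chromosome's regions that lay in runs varied less than the number of runs. It was 23.5% on I (exact 95% binomial interval 21.3 to 25.9%), 19.8% on V (17.1 to 22.7%), 19.1% on II (16.7 to 21.7%), 17.8% on III (15.4 to 20.3%) and 14.7% on IV (12.4 to 17.3%). On X it was 8.09% (5.44 to 11.5%), below the intervals of all 5 autosomes. The intervals of V, II and III overlapped with each other, and that of I overlapped with those of V and II. Chromosome V had the fewest regions per Mb of the autosomes, 38.9, while chromosome I had 92.5 and X had 19.7. Chromosome I held 25.8% of all listed regions and 31.1% of the runs, and X held 6.45% and 3.63%. The order of I and X in runs was thus also their order in listed regions.

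**Figure D4:**
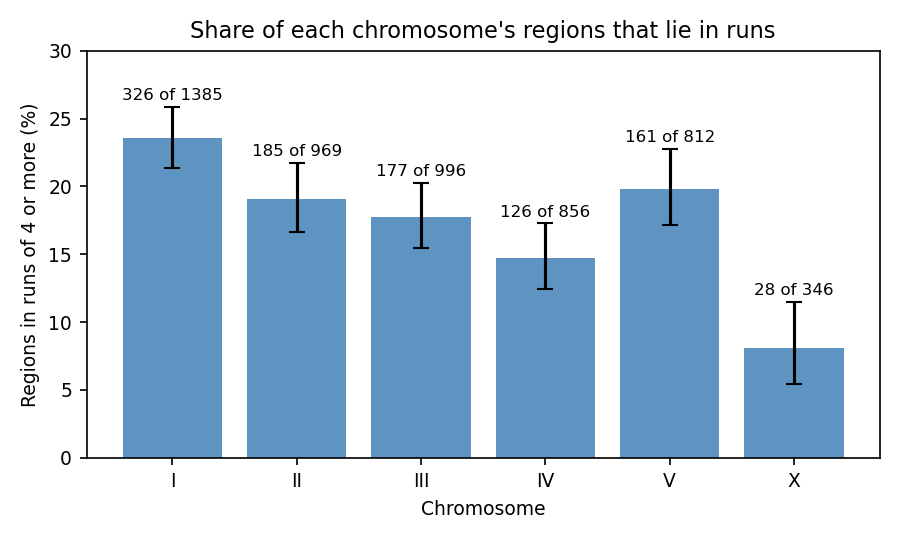
Percentage of each chromosome's regions that lie in runs of 4 or more, with exact 95% binomial intervals as error bars and the counts above them. The share is 23.5% on chromosome I, 8.09% on X and between 14.7 and 19.8% on the other chromosomes; the intervals treat regions as independent, which regions of a run are not.

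Most of the few runs on X were made of wide regions. All 7 held exactly 4 regions and spanned 4066 to 7977 bp, beside a median of 4360 bp for the runs of 4 on all chromosomes. Over their 28 regions the median width was 1213 bp, against 625 bp for the X regions outside runs. On the autosomes the run medians lay between 516.5 bp on I and 666 bp on V. Regions outside runs were also wider on X than on the autosomes, where their medians lay between 322 bp on I and 505 bp on V. The X runs at 2872228 to 2876293 and at 13222560 to 13227042 had lower medians, 602.5 and 560.5 bp. The X run with the longest span (2697359 to 2705335) held regions of 2191, 1077, 1589 and 1551 bp, with q-values of 1.85e-38, 4.27e-14, 3.89e-06 and 1.13e-10. The next in span (5111981 to 5119638) was covered to 88.1%. The least covered of the 7 X runs reached 70.1%, beside a median of 70.4% for the runs of 4 on all chromosomes. The other X runs were covered to between 73.8 and 88.1%.

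Apart from chromosome I, the chromosomes had a lower share of their regions in runs in the middle than towards the ends. In this species the central parts of the autosomes are rich in conserved and widely expressed genes, while the arms recombine more and hold more repeats. With each chromosome divided into 3 equal parts, the middle parts held 36.9% of all regions and 26.9% of the runs (52 of 193). Of the regions in the middle parts, 13.7% lay in runs (272 of 1980; exact 95% binomial interval 12.3 to 15.3%), and of those in the outer parts 21.6% (731 of 3384; 20.2 to 23.0%). The difference was −7.86 percentage points.

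Chromosome I did not share this pattern, with 24.1% of regions in runs in the middle and 23.2% in the outer parts. Without it, 10.1% of the middle regions and 21.1% of the outer regions lay in runs, a difference of −10.96 points. From left to middle to right the share went from 22.4 to 7.78 to 24.4% on III, from 19.3 to 8.28 to 17.2% on IV, from 19.6 to 12.2 to 25.8% on II and from 19.6 to 15.3 to 25.8% on V. On X no run lay in the middle part: 0 of 103 regions, a count of 0 that allows a share of up to 2.91% if the limit is set at 3 counts of the total, and not by the exact interval used for the other shares. On II to V and on X the share was thus lowest in the middle part. On II, III and V the middle part nevertheless held the most regions, with 362, 360 and 327. The number of runs was not lower in the middle than in the left part on II (9 and 9) and V (9 and 8). It was lower on III (6 and 13), IV (5 and 13) and X (0 and 3).

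Pairs and runs of 3 did not have a smaller share in the middle. Without chromosome I, pairs were 22.4% of the middle regions and 19.3% of the outer regions, and runs of 3 were 12.5% and 9.55%. Of the classes by run size, only that of 4 or more had a smaller share in the middle, since lone regions were 55.0% and 50.1%. These shares add up to the whole, so a smaller share of 1 class raises those of the others. The larger shares of the other classes are therefore not a separate result. Middle regions were also wider than outer regions on these chromosomes, with medians of 487 and 433 bp. The pattern depended on the joining limit: with gaps under 500 bp the difference between middle and outer parts was −0.51 points over all chromosomes and −1.11 points without chromosome I. The difference was thus seen where gaps of 500 to 999 bp were joined too.

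**Figure D5:**
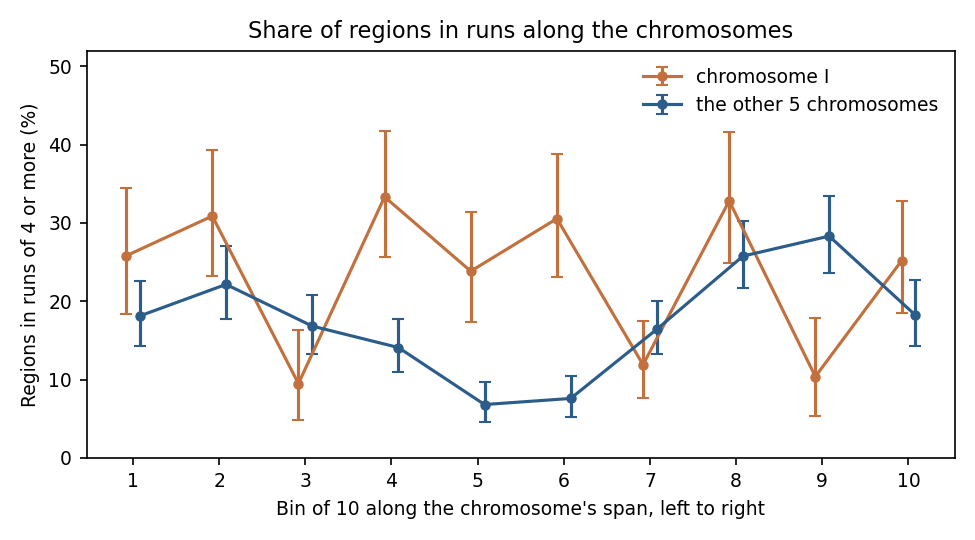
Percentage of regions that lie in runs of 4 or more along the chromosomes, with each span divided into 10 equal bins from left to right, for chromosome I (orange) and the other 5 chromosomes pooled (blue), with exact 95% binomial intervals. On the other chromosomes the share is lowest in bins 5 and 6, with 6.81 and 7.59%, and highest in bin 9, with 28.3%, while chromosome I goes up and down between 9.48 and 33.3% with no such trough.

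Runs themselves came unevenly along the chromosomes. Cut into 102 windows of 1 Mb, the genome had no run in 27 windows, 12 of them on X, and 5 or more in 8 windows. The fullest window was on chromosome I (7000001 to 8000000), where 9 runs took up 53 of 118 regions. The next 2 were also on I (14000001 to 15000000 and 11000001 to 12000000), with 7 runs each. The distance from a run to the previous one on its chromosome was 271 kb at the median over 187 such distances, but 18 runs followed another within 10 kb. The closest lay 1000 bp apart on chromosome II, between runs of 8 and 6 regions that end at 12216165 and start at 12217166, exactly at the limit. A slightly larger limit would join them into a single run with more regions than the run of 12 on chromosome I. The longest stretch without a run covered 6.96 Mb in the middle of X (5119639 to 12075774) and still held 124 regions. On chromosome IV a stretch of 2.81 Mb (8778233 to 11592583) held 143 regions and no run.

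The regions just beyond the runs were often near as well. The nearest listed region outside a run lay 2517 bp away at the median, and within 2000 bp in 79 of 193 runs (40.9%). Lone regions had their nearest neighbour at 3834.5 bp at the median, and within 2000 bp in 26.3% of cases. By the rule neither distance can be under 1000 bp.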

How the data were processed

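The data are 1 deposited list of regions for the series; 4 libraries (2 ChIP, 2 input) entered it, grouped by their descriptions. Per the file headers, coordinates refer to WormBase build WS180, counted from 1. The source column gives PeakSeq, which compares ChIP with input. Each region carries only the q-value that the authors deposited, a multiple-testing correction of its p-value. Library depths, read filters, the aligner, PeakSeq's settings and how replicates were joined are not given in the sources used here. Another caller that splits or joins stretches differently would change widths, gaps and runs directly.

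Gaps, widths and runs were computed from starts and ends after sorting; the joining was tested on simulated data with known runs. A chromosome's span runs to the end of its last region. Middle and outer parts divide that span into 3 equal parts, by region midpoint. The regions, the joining rule and the description were chosen with earlier results of these data known, and no significance test was made. Runs named one by one are the 10 with the most regions (ties broken by the longer span), the largest of each chromosome, and those with the longest span, largest covered share or smallest q-value; other runs, the windows and stretches, and the division into parts were chosen after their values were seen. Shares have exact 95% binomial (Clopper-Pearson) intervals, and medians have order-statistic intervals. Alternatives were gaps under 500 or 2000 bp, runs of at least 3 or 5, q-values of at most 0.001 and regions of 100 bp or more. Genes per chromosome were counted in the RefSeq table of assembly WBcel235, without placing regions on genes. Computations used Python 3.11.15 with pandas 2.3.3, numpy 2.4.6 and scipy 1.17.1, and plots used matplotlib 3.10.9.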

Additional observations from a re-analysis of the deposited data

How the results depend on the processing

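The number of runs, 193, changed to 77 with gaps under 500 bp and 283 with gaps under 2000 bp. It was 382 with runs of 3 or more and 99 with runs of 5 or more. With q-values of at most 0.001 there were 88 runs, and with regions of 100 bp or more 156. The share of regions in runs, 18.7%, moved with each of the 6 alternatives: to 6.79 and 29.9% with gaps under 500 and 2000 bp, 29.3 and 11.7% with runs of at least 3 and 5, 12.3% with q-values of at most 0.001 and 16.6% with regions of 100 bp or more. Chromosome I held 32.5% of run regions. This share was 40.1 and 31.4% with gaps under 500 and 2000 bp, and 29.9 and 34.1% with runs of at least 3 and 5. With q-values of at most 0.001 it was 37.0%, and with regions of 100 bp or more 33.4%. The difference in median width (164 bp) stayed positive in these 6 alternatives, from 127 to 212 bp, and that in median −log10 q-value (1.26) from 0.80 to 1.72. Alternatives for the difference between middle and outer parts (−7.86 points) were chosen after seeing the data. It was −0.51 points with gaps under 500 bp (−1.11 also without chromosome I), −4.44 with runs of 5 or more and −10.96 without chromosome I, and the cause was not tested. The other alternatives, each other chromosome left out included, ranged between −5.06 and −7.96. No paired analysis was possible because libraries have no values of their own here, which also prevented leaving out a replicate. Without depths, a gap between regions cannot be told from sequence below the detection limit.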
